A study of Mus musculus with 29 samples.

Results

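Bipolar cells are the interneurons that carry signals from photoreceptors to the inner retina. Esam and Lyve1 are best known from the walls of blood and lymph vessels. Yet Lyve1 stood among the more abundant transcripts of every sorted mouse bipolar population, and Esam among those of all but ON bipolar cells. Both genes were followed here with 8 genes of the same kind, the junction proteins Jam2, Jam3, F11r and Cldn5, the adhesion molecule Pecam1, and the growth factor receptors Kdr, Tek and Flt1. The rule was the gene symbol: 10 of the 24062 genes of the RNA-seq table, of which 8 passed the filter on low counts (all except Cldn5 and Tek), as did 14024 genes in all. Esam had been picked because its RNA differed between ON and OFF bipolar cells, and Lyve1 because its RNA differed between bipolar cells and rods. Their values in those comparisons, and that of Lyve1 in pan-BCs against blue cones, are therefore given without a test.

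The RNA-seq data held 15 libraries, 3 from each of 5 populations sorted by fluorescence. Pan-BCs (all bipolar cells, one mouse per library) came from Otx2-GFP+/- mice at postnatal day 44 to 47, which carry a GFP cassette in one Otx2 allele. ON-BCs and OFF-BCs (a pair of mice pooled per library) came from Otx2-GFP+/-; Grm6-YFP+/+ mice at day 42 to 48, in which the Grm6 promoter drives YFP in ON bipolar cells, and OFF-BCs were sorted a second time while all other RNA-seq libraries were sorted once. All bipolar populations thus shared an Otx2 allele that carries the GFP cassette, and ON-BC and OFF-BC libraries of the same number came from mice of the same age. Rods came from Nrl-eGFP mice and blue cones from Nrl-eGFP;NrlKO mice, both at day 56 in an earlier study, and a blue cone here is a photoreceptor that lacks NRL and so takes a cone-like fate in place of the rod fate. The ATAC-seq table held 12 libraries, 2 from each of the same populations and from green cones of Opn1mw-GFP mice at day 56, with the bipolar mice at day 42 to 46 and labelled Otx2-GFP+/-; Grm6-YFP+/+. Bipolar cells and photoreceptors differ in study, age and genotype as well as in class, and these cannot be told apart.

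Vessel endothelium is sealed by junctions in which claudins such as CLDN5 and immunoglobulin-type adhesion proteins such as ESAM, PECAM1 and the JAM proteins bind like proteins on the next cell. Its growth is steered by VEGF acting on the receptors KDR and FLT1, and its stability by angiopoietins acting on the receptor TEK. LYVE1 is a receptor for hyaluronan, a sugar polymer of the extracellular matrix, and marks lymphatic endothelium and some tissue macrophages. Blood vessels run through the layers of the retina that hold the bodies and processes of bipolar cells.

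Values are normalised read counts, that is reads divided by a size factor of the library. A gene or region was called where its log2 difference exceeded 1 in either direction with an adjusted p under 0.05 (limma's treat on log2 of the value plus 1, Benjamini-Hochberg over all features tested). Reads per RNA-seq library numbered 12329548 to 26266746, and per ATAC-seq library, within the regions counted, 4176776 to 12345845. The bipolar identity of the libraries was checked against 11 bipolar genes, which summed to between 130559.1 and 229605.1 in the bipolar libraries and at most 38273.4 in photoreceptors. RNA of a list of 6 rod genes was unevenly spread over the bipolar libraries. They summed to 32958.4 to 41462.0 in pan-BCs, 19855.0 to 25016.2 in ON-BCs and 3539.4 to 17852.0 in OFF-BCs, where 1 library stood apart through Sag. Without Sag the OFF-BC libraries summed to 861.4 to 1393.7. Rods had at least 1750640.3 and blue cones 167839.7 to 258079.5, there mostly as Sag at a mean of 213034.1. Sag alone therefore cannot tell rod RNA from cone RNA. The Lyve1 difference between ON-BCs and OFF-BCs stayed between -1.71 and -1.39 (log2) over all alternatives, among them each library left out. The part of rod RNA in the differences given here was not tested, and each gene's own level in rods is given. In sorted bulk samples, fewer cells of a type that makes a transcript and less of it per cell cannot be told apart.

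The stretches of open chromatin that the ATAC-seq results on Esam and Lyve1 turn on are shown first, as the plus strand of GRCm38 (RefSeq assembly). They are 3 of the 201 bp regions of the table that overlap no annotated exon: the Esam promoter region centred at -831 bp from its start site, at chr9:37527158-37527358, the region in the first part of the Lyve1 gene at 696 bp, at chr7:110862157-110862357, and the region between Lyve1 and its neighbour Mrvi1 at -2393 bp, at chr7:110865246-110865446. Capitals mark the E-box core CANNTG, to which basic helix-loop-helix proteins bind.
Esam region at -831 bp: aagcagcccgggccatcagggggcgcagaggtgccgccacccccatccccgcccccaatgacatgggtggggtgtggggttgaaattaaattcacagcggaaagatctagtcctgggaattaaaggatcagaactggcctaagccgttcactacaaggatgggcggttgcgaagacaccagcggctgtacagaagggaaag
Lyve1 region at 696 bp: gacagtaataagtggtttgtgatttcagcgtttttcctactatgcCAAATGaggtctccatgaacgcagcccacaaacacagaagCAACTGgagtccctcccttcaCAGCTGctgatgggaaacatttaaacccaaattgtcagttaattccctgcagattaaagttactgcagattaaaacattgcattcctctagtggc
Lyve1 region at -2393 bp: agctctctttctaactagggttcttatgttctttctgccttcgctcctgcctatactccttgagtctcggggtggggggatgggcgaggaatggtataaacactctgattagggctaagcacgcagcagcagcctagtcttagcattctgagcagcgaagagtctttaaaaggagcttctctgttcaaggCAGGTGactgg

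The Esam region holds none of the 3 motifs searched on both strands, the homeodomain cores TAATCC and TAATTA and the E-box CANNTG, and 57.7% of its bases are G or C. The Lyve1 region at 696 bp holds 3 E-box cores and the one at -2393 bp holds 1. Over all 110715 regions of the table, 68.9% hold CANNTG, 21.8% hold TAATCC, the core bound by OTX2 and CRX, and 5.22% hold TAATTA. Among the 15773 promoter regions the shares are 48.0%, 5.86% and 1.12%. These matches describe the letters in the window and nothing more.

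Esam, an adhesion protein of endothelial junctions and platelets, was by far highest in OFF bipolar cells. Its normalised counts were 14204.1, 12159.6 and 13198.6 in the OFF-BC libraries, 69.13, 55.85 and 42.07 in ON-BCs, and 2260.3, 2506.8 and 2031.1 in pan-BCs, which hold both kinds of cell. No value of one bipolar population came near those of another, and the OFF-BC mean was 236.8 times the ON-BC mean, the difference for which the gene had been chosen. Rods had 10.67, 19.46 and 52.95, and blue cones 34.6, 59.95 and 117.7. The order was OFF-BC, pan-BC, then blue cone, ON-BC and rod, whose values overlapped from each to the next.

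In the comparisons that had not served to choose it, Esam was 81.8 times higher in pan-BCs than in rods (log2 difference 6.59, SE 0.44, adjusted p = 3.49e-09, limma) and 32.0 times higher than in blue cones (5.15, SE 0.44, adjusted p = 2.69e-07). Both calls held in 18 of 18 alternative settings. These 2 comparisons share the pan-BC libraries. The difference between rods and blue cones was not called (-1.44, SE 0.44, adjusted p = 0.66). Of all genes tested, 27.8% were called higher in pan-BCs than in rods and 15.8% higher in rods, 22.7% higher in pan-BCs than in blue cones and 13.7% higher in blue cones, and between rods and blue cones 4.63% were higher in rods and 11.3% in blue cones.

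Lyve1, the hyaluronan receptor, was present in ON and OFF bipolar cells alike and nearly missing from photoreceptors. The pan-BC libraries had 2877.2, 2523.9 and 2850.8, the ON-BC libraries 1654.1, 1753.9 and 1589.3, and the OFF-BC libraries 6428.7, 4612.3 and 4111.5. Rods gave 2 reads in 3 libraries and blue cones 91, for a mean of 22.6 ± 17.9 (SD, n = 3). Values of each population lay apart from those of the next in the order OFF-BC, pan-BC, ON-BC, blue cone and rod. The pan-BC mean was 121.7 times that of blue cones, a description since the gene had been chosen for its bipolar level.

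Between ON-BCs and OFF-BCs, Lyve1 was 3.03 times higher in OFF-BCs without overlap of the libraries, yet it was not called against a log2 difference of 1 (-1.57, SE 0.44, adjusted p = 0.943). It was called in 4 of 18 alternatives, with adjusted p-values from 3.27e-05 to 1 over the alternatives. These were the test against no change, both edgeR tests and the limma fit with only the 2 populations. That fit and edgeR's glmTreat kept the log2 difference of 1 as the threshold. In this comparison 3.6% of genes were called higher in OFF-BCs and 2.95% higher in ON-BCs. Lyve1 was higher in blue cones than in rods (log2 difference -3.73, SE 0.44, adjusted p = 8.18e-05), where the size depends on the 1 added to the 2 rod reads. The bipolar populations therefore had Lyve1 on both sides of the ON and OFF division, and Esam almost wholly on one.

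Of the JAM proteins, Jam2 and Jam3 encode JAM-B and JAM-C, which bind each other across cell contacts, and both were well expressed in retinal neurons. Annotated lncRNA genes overlap Jam2, Jam3, Kdr and Flt1, at Jam3 on the same strand and at the others on the opposite strand. For Jam3 strand would not separate the reads, and for the others whether the counts used strand is not stated. Reads of these lncRNAs therefore cannot be told apart from those of the 4 genes. Jam2 was a photoreceptor-weighted transcript, with 3005.8, 3073.1 and 3048.5 in rods and 2877.5, 2942.7 and 3139.0 in blue cones, against 448.9, 472.1 and 524.9 in pan-BCs. It was called lower in pan-BCs than in rods (log2 difference -2.66, SE 0.18, adjusted p = 3.09e-07, 6.31 times) and than in blue cones (-2.63, SE 0.18, adjusted p = 6.29e-07). ON-BCs and OFF-BCs averaged 349.3 and 356.1, with overlapping libraries and a log2 difference of 0.02 (SE 0.18).

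Jam3 had the opposite standing in the 2 photoreceptor populations. Rods had 50.45, 53.27 and 36.74, blue cones 4166.6, 4871.6 and 4389.8, a difference of 95.6 times (log2 difference -6.56, SE 0.15, adjusted p = 9.41e-15). The bipolar populations stood between, with 1107.3, 1070.3 and 1195.4 in pan-BCs, called higher than rods (4.57, SE 0.15, adjusted p = 9.28e-13) and below blue cones (-1.99, SE 0.15, adjusted p = 1.36e-05). OFF-BCs with 2706.9, 2144.5 and 2167.2 lay above ON-BCs with 778.0, 847.6 and 1041.4, which is 2.63 times but not past the test (-1.40, SE 0.15, adjusted p = 0.101). It was called in 4 of 18 alternatives, one of them the fit without ON-BC replicate 3. Jam3 thus ranked OFF-BC over pan-BC over ON-BC as Esam and Lyve1 did, with a far smaller span than Esam.

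F11r, which encodes JAM-A, was near the limit of detection, with 1 to 3 reads per library where it was detected in pan-BCs and ON-BCs and up to 24.28 in blue cones. It was called lower in pan-BCs than in blue cones (log2 difference -3.08, SE 0.77, adjusted p = 0.0239), a call lost with a pseudocount of 5 (adjusted p up to 0.113 over the alternatives), with DESeq2, without pan-BC replicate 2 and without blue cone replicate 2. Cldn5, the claudin that seals the blood-retina barrier, gave no read in any of the 3 ON-BC libraries, which allows a mean of up to 1.01 normalised counts. Its reads numbered 11, 0 and 4 in pan-BCs, 0, 0 and 4 in OFF-BCs, 0, 6 and 8 in rods and 1, 6 and 2 in blue cones. Cldn5 thus gave at most 11 reads in a library, in libraries of at least 12329548. The series holds no endothelial library to set this against.

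Pecam1, the adhesion molecule most often used to stain endothelium, was highest in rods, with 194.0, 94.24 and 92.94. The ON-BC libraries had 29.92, 28.42 and 27.7, the OFF-BC libraries 21.24, 9.611 and 6.621, the pan-BC libraries 14.89, 13.11 and 7.341 and the blue cone libraries 3.761, 14.42 and 8.142. It was called higher in rods than in pan-BCs (pan-BC minus rod -3.29, SE 0.49, adjusted p = 0.000377, 10.8 times) and than in blue cones (3.78, SE 0.49, adjusted p = 0.000182), and both calls held in 18 of 18 alternatives. ON-BCs lay above OFF-BCs without overlap, at 2.30 times, and the test did not call it (1.29, SE 0.49, adjusted p = 1). Pecam1 and Esam were thus ordered in contrary ways between pan-BCs and rods, Pecam1 with its higher values in rods and Esam in pan-BCs. Between ON-BCs and OFF-BCs their directions differed too. Esam had been chosen on that contrast and Pecam1 was not called in it, so this is a description only.

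The receptors gave few reads everywhere. Kdr, the main VEGF receptor of endothelium, ran from 6.191 to 15.95 in pan-BCs and ON-BCs, from 9.931 to 31.24 in OFF-BCs and from 23.29 to 56.34 in photoreceptors. Flt1, the VEGF receptor that acts largely as a decoy, ran from 0 to 11.18 in the bipolar libraries and from 3.008 to 35.66 in photoreceptors. Tek, the angiopoietin receptor, averaged 5.72 in pan-BCs, 5.42 in ON-BCs, 5.52 in OFF-BCs, 7.68 in rods and 6.82 in blue cones, with overlap throughout. Kdr and Flt1 were not called in any comparison, and Kdr in pan-BCs lay below both photoreceptor populations without overlap (pan-BC minus rod -1.43, SE 0.48, adjusted p = 0.375).

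Between ON-BCs and OFF-BCs, limma called 0 of the 7 tested members that had not been chosen on this contrast (Lyve1, Jam2, Jam3, F11r, Pecam1, Kdr and Flt1). Unadjusted p was under 0.05 for 2 of them, F11r and Jam3. edgeR's glmTreat called 2, Jam3 and Lyve1, DESeq2 called 0 and edgeR's F test against no change called 3. Over all genes, limma called 2.95% higher in ON-BCs and 3.6% higher in OFF-BCs, shares that also apply to the gene lists below.

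Esam and Lyve1 were next set beside 30 vessel genes per kilobase of exon, since counts of genes of unequal length cannot be compared directly. In pan-BCs Esam averaged 1215.0 ± 127.6 and Lyve1 1055.1 ± 75.48 normalised counts per kilobase (SD, n = 3), above all 30 vessel genes, whose median was 0.789. In OFF-BCs Esam reached 7071.0 ± 548.1 per kilobase, a level with 99.3% of 22511 genes below it, and Lyve1 1937.4 ± 467.7, both again above 30 of 30. In ON-BCs Lyve1 at 639.0 ± 31.81 was above 30 of 30, with 91.8% of all genes below it. Esam at 29.86 ± 7.257 was above 28 there, with only 57.9% of all genes below it. The same count was 29 of 30 for Esam in rods and in blue cones, with 57.7% and 62.8% of all genes below it. For Lyve1 it was 8 of 30 in rods and 29 of 30 in blue cones, with 37.6% and 53.0% below. A count near 30 thus also went with a middling level, since most vessel genes were near 0. The named markers lay far lower: Pecam1 averaged 3.54 per kilobase in pan-BCs, Cldn5 3.91, Kdr 1.64, Tek 1.22 and Flt1 0.449.

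**Figure D1:**
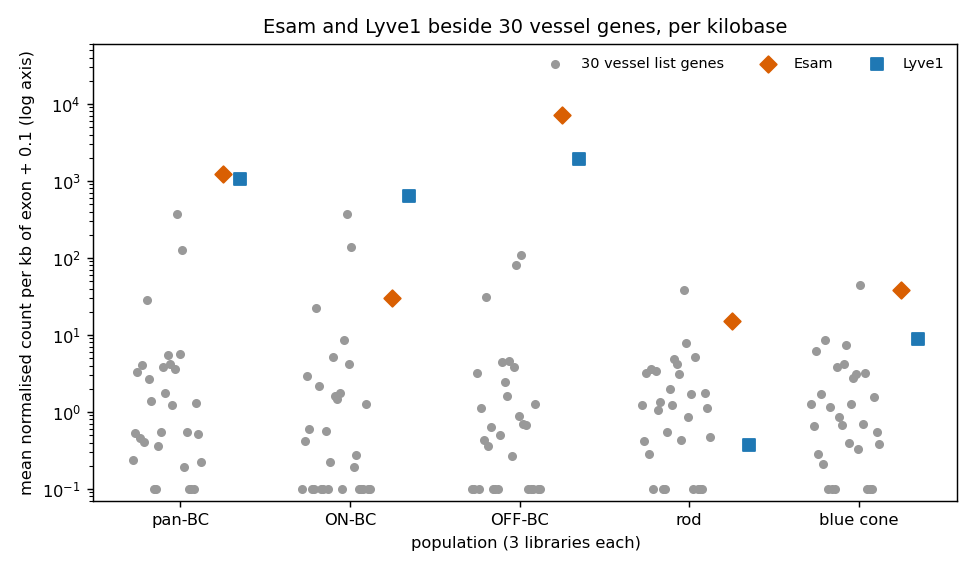
Mean normalised count per kilobase of exon plus 0.1 (log axis) in the 5 populations, 3 libraries each; grey points are the 30 vessel genes, the diamond is Esam and the square Lyve1. Esam at 7071.0 in OFF-BCs is above the highest vessel gene there, Ramp2 at 109.5, while in ON-BCs it is at 29.86, below Plvap at 372.7.

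The vessel genes were not higher in OFF-BCs, where Esam was highest. Their summed normalised count ranged from 938.5 to 1268.0 in pan-BCs, 783.9 to 1202.5 in ON-BCs, 307.6 to 468.3 in OFF-BCs, 224.3 to 357.7 in rods and 122.6 to 251.9 in blue cones. Of the 8 that passed the filter, 1 was called higher in ON-BCs and 0 in OFF-BCs (limma gave an unadjusted p under 0.05 for 2, Plvap and Ptprb, which edgeR's glmTreat both called, and DESeq2 called 1), with a median log2 difference of 0.16 against -0.02 over all genes. The gene called was Plvap, which forms the diaphragms of fenestrated endothelium, at 751.3 ± 208.0 in ON-BCs and 163.3 ± 26.07 in OFF-BCs (2.17, SE 0.31, adjusted p = 0.0142, lost without ON-BC replicate 1, ON-BC replicate 3 or OFF-BC replicate 2). Plvap was the larger part of the ON-BC sum, and without the highest gene of each population the ON-BC and OFF-BC sums overlapped, at 266.5 to 287.3 and 171.8 to 301.8. Genes that define endothelium were at 0 in whole populations: Sox17, Sox18, Erg and Tal1, which encode transcription factors of the lineage, had no read in any of the 15 libraries. Cdh5 and Tie1 had none in OFF-BCs, but Tie1 had none in ON-BCs either. Of the 30 genes, 11 were at 0 in OFF-BCs and 12 in ON-BCs. Cldn5, Eng, Mfsd2a and Clec14a were at 0 in ON-BCs but not in OFF-BCs. Genes at 0 thus did not set OFF-BCs apart from ON-BCs.

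Against rods, 4 of the 8 vessel genes were called higher in pan-BCs (Egfl7, Ramp2, Plvap and Ptprb) and 1 higher in rods, which was Pecam1. Over all genes the shares were 27.8% and 15.8%. The median log2 difference was 1.97 against 0.21 over all genes. Ramp2, a subunit of the adrenomedullin receptor, averaged 111.3 in pan-BCs, 122.3 in ON-BCs, 95.49 in OFF-BCs and 1.404 in rods, and Egfl7, a secreted endothelial protein, 44.43, 34.94, 49.49 and 5.255. Neither was called between ON-BCs and OFF-BCs.

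Within a population, the library in which a gene was highest gave a mixed picture. In blue cones Esam and Lyve1 were highest in replicate 3, and Pecam1, Cldn5, Kdr, Tek and Flt1 in replicate 2. In rods Esam, Lyve1 (on 2 reads), Cldn5 and Flt1 were highest in replicate 3, Kdr and Tek in replicate 2 and Pecam1 in replicate 1. In pan-BCs Lyve1 was highest in replicate 1 with Pecam1, Cldn5, Kdr and Tek, and Esam in replicate 2 with Flt1. In ON-BCs Esam shared its highest library with Pecam1 and Lyve1 with Kdr, while in OFF-BCs Esam, Lyve1, Pecam1 and Flt1 were all highest in replicate 1, where the range of Esam was 1.17 times and that of Pecam1, on 6 to 19 reads, 3.21 times. With 3 libraries per population these orders are descriptions only.

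Markers of other cells that could bring Esam or Lyve1 RNA were counted in the same libraries. For lymphatic endothelium, Ccl21a and Mmrn1 had no read in any library, and Flt4, the lymphatic VEGF receptor, was at 0 in ON-BCs and OFF-BCs, averaged 1.77 in pan-BCs and was highest in blue cones at 78.48. The list of 8 was nonetheless high in bipolar cells, from 1676.0 to 11639.5, through Prox1, Reln and Nrp2, all of which are known from neurons too. Prox1, the lineage factor of lymphatic endothelium, averaged 3720.6 in pan-BCs, 3636.5 in ON-BCs and 1202.6 in OFF-BCs, so its larger values were in ON-BCs, as were those of Reln at 6794.8 against 153.1 (log2 difference 5.91, SE 0.64, adjusted p = 2.44e-05), while Lyve1 was higher in OFF-BCs. Of the 5 tested, 1 was called between ON-BCs and OFF-BCs, with a median of 0.22.

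The 17 macrophage and microglia genes in the table summed to 65.6 to 89.3 in pan-BCs, 101 to 141 in ON-BCs, 137.5 to 290.2 in OFF-BCs, 98 to 168.6 in rods and 584 to 1245 in blue cones. Csf1r, the growth factor receptor of these cells, was called higher in OFF-BCs and averaged 26.16 there and 3.009 in ON-BCs, and it was the only one of 11 called. The sum was thus highest in blue cones, and the OFF-BC values lay largely above those of ON-BCs, with overlap, as those of Lyve1 lay above without overlap. Members of the list differed in OFF-BCs. C1qb was the highest there at 59.26, while 4 genes, Cd163, Mrc1, F13a1 and Pf4, had no read. In ON-BCs 1 gene, Cd163, had none. The 12 pericyte and smooth muscle genes summed to 376.5 to 429.5 in pan-BCs, 280.7 to 439.0 in ON-BCs and 196.7 to 252.7 in OFF-BCs, mostly as Notch3, a receptor of mural cells, at 270.1, 268.4 and 125.0, with Anpep and Tbx18 at 0 in all 3. limma called 0 of 5 of them between ON-BCs and OFF-BCs, 0 had an unadjusted p under 0.05, and edgeR's glmTreat and DESeq2 called 0 (the F test against no change called 2). Of 5 red blood cell genes, the 4 haemoglobins had no read in any library. The other, Alas2, averaged 31.73 in pan-BCs, 27.91 in ON-BCs, 30.81 in OFF-BCs, 22.79 in rods and 15.49 in blue cones. The 10 Müller glia and astrocyte genes summed to 2710.1 to 3644.6 in OFF-BCs, 1969.1 to 2628.3 in pan-BCs and 1273.3 to 1528.5 in ON-BCs. These did not overlap and lay in the order of Esam and Lyve1, while rods had 1050.8 to 1671.8 and blue cones 1873.5 to 3262.6. Of 9 tested, 1 was called, Sox9, higher in OFF-BCs. The 13 genes of amacrine, horizontal and ganglion cells summed to 785.7 to 992.4 in OFF-BCs, 736.6 to 749.9 in pan-BCs, 391.1 to 595.7 in ON-BCs and at least 1537.3 in photoreceptors. Without Slc6a9, the OFF-BC and ON-BC sums overlapped, at 304.6 to 392.9 and 204.3 to 434.1. Of 8 tested, 1 was called on each side, Nefl in ON-BCs and Slc6a9 in OFF-BCs. The part of these cells in the levels of Esam and Lyve1 was not tested.

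Adhesion proteins related to ESAM were then counted. The JAM and CTX family list held 12 genes in the table, 8 of them tested. Esam aside, which was chosen on this contrast, 1 gene was called higher in OFF-BCs, Vsig2, and 1 in ON-BCs, Igsf11, an adhesion protein of the same family, at 476.1 ± 22.24 in ON-BCs and 129.4 ± 47.55 in OFF-BCs (1.94, SE 0.20, adjusted p = 0.00249). The median over the 7 genes other than Esam was 0.02 against -0.02 over all genes. Cxadr, the receptor of coxsackie viruses and adenoviruses, averaged 603.9 in pan-BCs, 484.2 in ON-BCs and 336.1 in OFF-BCs. Integrins that bind JAM proteins were present as well: Itgav averaged 426.9 in ON-BCs and 109.1 in OFF-BCs, the only one of 4 called between them, and Itga4, part of a JAM-B receptor, 266.2 in pan-BCs, 1492.9 in rods and 4082.4 in blue cones.

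Of 30 tight junction and polarity genes in the table, 22 were tested. Of these, 2 were called higher in ON-BCs and 0 in OFF-BCs (2.95% and 3.6% over all genes), with a median of 0.11. These were Marveld3, at 11.17 against 1 read in the OFF-BC libraries together (3.21, SE 0.42, adjusted p = 0.000964, lost with a pseudocount of 5), and Tjp3, at 77.81 ± 23.9 against 13.41 ± 4.13 (2.45, SE 0.44, adjusted p = 0.0376, called in 9 of 18 alternatives, adjusted p = 0.0564 with the replicate block). Among the most abundant were the scaffold gene Magi1, with a mean over the 9 bipolar libraries of 4222.6, and the claudin gene Cldn12 with 1559.8. Bipolar cells thus had Magi1 and Cldn12 in quantity and Cldn5 hardly at all.

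Around LYVE1, the hyaluronan list held 22 genes in the table, 13 of them tested. Between ON-BCs and OFF-BCs limma called 0, 1 had an unadjusted p under 0.05 (Hyal1), edgeR's glmTreat called 1, Lyve1, and DESeq2 0, with a median of 0.27. Ncan, a proteoglycan that binds hyaluronan around neurons, averaged 1358.8 in pan-BCs, 1948.6 in ON-BCs, 1353.8 in OFF-BCs, 14.39 in rods and 31.19 in blue cones, and Tmem2, a cell surface hyaluronidase, 396.9, 394.4, 590.3, 139.7 and 236.4. Lyve1 was chosen on its difference from rods, and of the other 12, 8 were called against rods, 1 of them, Hapln3, higher in rods. Over all genes 27.8% were called higher in pan-BCs and 15.8% higher in rods. The median of the 12 was 1.64 against 0.21 over all genes. Ncan thus shared with Lyve1 a high level in all 3 bipolar populations and a low one in photoreceptors.

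Ligands and receptors of the vessel growth factors divided in another way. Vegfa, the main ligand of KDR, averaged 588.4 ± 42.94 in pan-BCs, 605.8 in ON-BCs, 569.6 in OFF-BCs, 49.78 in rods and 169.9 in blue cones, while its receptor genes Kdr and Flt1 were at the few reads given above. Of 11 genes tested, 2 were called higher in OFF-BCs and 0 in ON-BCs (3.6% and 2.95% over all genes), with a median of -0.55. One was Angpt1, the ligand of TEK, at 4.014 ± 2.609 in ON-BCs and 519.1 ± 101.1 in OFF-BCs (-6.87, SE 0.48, adjusted p = 1.55e-07). The other was Nrp1, a coreceptor of VEGF and of semaphorins, at 6.047 ± 2.589 and 388.4 ± 62.1 (-5.86, SE 0.32, adjusted p = 2.18e-08). Both held in 18 of 18 alternatives. OFF-BCs thus had Esam and Angpt1 with hardly any Tek, and Nrp1 with hardly any Kdr.

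The 2 genes that flank Esam on chromosome 9 were read for comparison, in the order of the annotation. Esam lies at chr9:37528089-37538319 on the plus strand of GRCm38. Vsig2, a gene of the same immunoglobulin family 935 bp further along on the same strand, had 155.4, 120.1 and 160.0 in OFF-BCs, 42.55, 40.35 and 18.35 in pan-BCs, 2 reads in the 3 ON-BC libraries and none in rods or blue cones. It was called higher in OFF-BCs than in ON-BCs (-6.50, SE 0.45, adjusted p = 1.55e-07) and held in 18 of 18 alternatives. OFF-BCs were followed by pan-BCs, as for Esam, at a level of 124.1 per kilobase in OFF-BCs against 7071.0. Whether transcripts that run past the end of Esam add to the count of Vsig2 was not tested. Msantd2, 1975 bp before Esam, had 448.2, 597.1 and 579.3 in OFF-BCs and 190.9, 168.5 and 178.5 in ON-BCs (-1.58, SE 0.18, adjusted p = 0.0392, called in 10 of 18 alternatives, adjusted p = 0.0582 with the replicate block), and 164.9, 164.9 and 202.1 in rods.

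Lyve1 lies at chr7:110850607-110862953 on the minus strand. Mrvi1, whose product regulates calcium release, ends 5303 bp from the start of Lyve1 and had 376.6, 260.7 and 333.2 in OFF-BCs, 0, 21.56 and 2.052 in ON-BCs and 76.58, 103.9 and 86.87 in pan-BCs. It was called higher in OFF-BCs (-6.29, SE 0.80, adjusted p = 0.000115) and higher in pan-BCs than in rods (5.01, SE 0.80, adjusted p = 0.000211), both in 18 of 18 alternatives. Rnf141 on the other side, a gap of 6154 bp, ran from 44.14 to 90.3 over the 15 libraries and was called in no comparison. So each of the 2 genes had on one side a neighbour in the OFF-BC direction and on the other a weaker or flat one. The ON-BC level of Lyve1, at 1665.8 ± 82.9, was not matched by either neighbour.

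**Figure D2:**
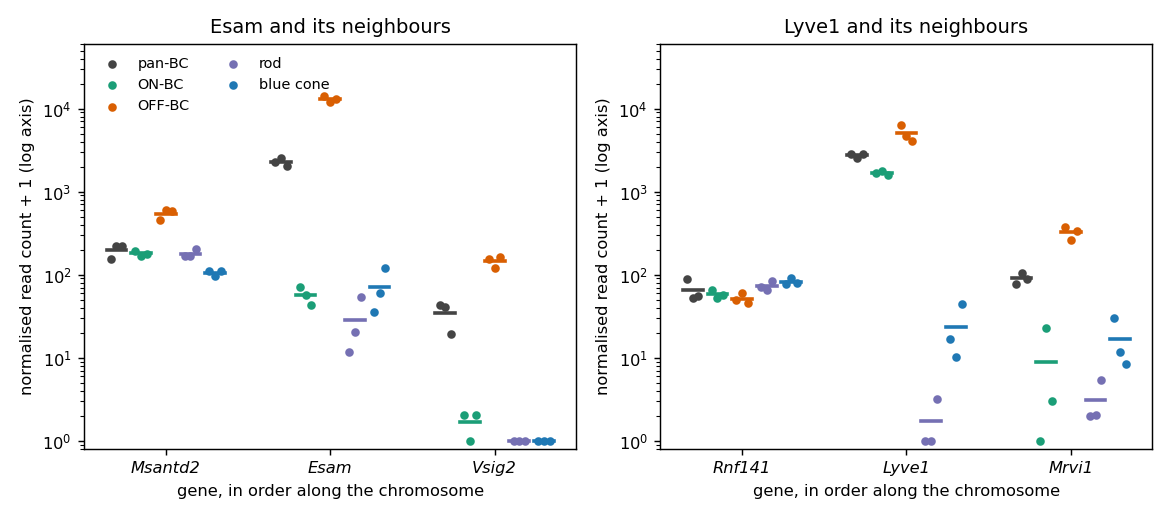
Normalised read counts plus 1 (log axis) of Esam and Lyve1 and their nearest coding neighbours, in their order along the chromosome and not to scale; points are libraries, colours populations and bars means of 3. Vsig2 and Mrvi1 are high in OFF-BCs, at means of 145.2 and 323.5, and low in ON-BCs, at 0.686 and 7.87, whereas Rnf141 differs little.

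Genes were then ranked by how closely their profile over the 15 libraries followed each of Esam, Lyve1 and Pecam1, as the mean absolute difference of log2 values after each profile was centred (14024 genes). Closest to Esam were Wfdc2 (0.565), Fezf2 (0.571), Fam19a4 (0.585), Kcnh8 (0.646) and Grik1 (0.723). Fezf2 encodes a transcription factor and Grik1 the kainate receptor subunit by which OFF bipolar cells answer glutamate, and Grik1 averaged 38804.1 in OFF-BCs, 469.4 in ON-BCs and 7078.8 in pan-BCs. Closest to Lyve1 were Stmn4 (0.583), Glra1 (0.643), Rnf182 (0.71), Trpc7 (0.719) and Scgn (0.767). Glra1 encodes a glycine receptor subunit and Scgn the calcium-binding protein secretagogin, and Scgn averaged 30557.0 in ON-BCs, 101221.4 in OFF-BCs and 119.6 in rods.

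Lyve1 was rank 1451 in likeness to Esam, at 2.38, and Esam rank 1123 in likeness to Lyve1, while Pecam1, Kdr and Flt1 were ranks 12849, 10971 and 11313 for Esam and 11027, 11757 and 12671 for Lyve1. Closest to Pecam1 were Spry2 (0.489), Frmpd1 (0.555), Hipk3 (0.583), Aggf1 (0.593) and Milr1 (0.608), all highest in rods, among them its own neighbour on chromosome 11. Its likeness to Kdr was rank 6645, to Flt1 rank 7130, to Esam rank 13905 and to Lyve1 rank 14021. The measure uses the same values by which Esam and Lyve1 were chosen, and a gene with so wide a span must lie far from genes that vary little, so these ranks are a description and add no evidence on whether they go with the vessel genes.

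Open chromatin was examined at the 56 regions whose nearest start site was that of one of the 10 genes. The genes had been picked on RNA. The authors had, however, already shown Esam as an example of accessibility that differs between ON and OFF bipolar cells in these libraries. Its ON-BC and OFF-BC values below are therefore not an independent finding. They comprised 24 between genes, 23 in introns and 9 overlapping exons, and 8 were promoters, whose centre lay within 1000 bp before a start site or 100 bp after it. In ON-BCs against OFF-BCs 2 were called higher in ON-BCs and 6 higher in OFF-BCs, where the shares of all 108448 regions were 4.58% and 2.8%. The 6 were 3 of the 5 at Esam, 2 of the 6 at Lyve1 and 1 of the 14 at Jam3, and the 2 were among the 13 nearest to Kdr. The median log2 difference over the 56 was 0.11 against 0.15 over all regions.

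The start of the Esam gene was open in OFF-BCs. In the promoter region at -57 bp, which overlaps the first exon and is not printed, counts were 99.69 and 85.66 in OFF-BCs, 8.959 and 5.857 in ON-BCs, 24.8 and 36.49 in pan-BCs, 3.115 and 5.421 in rods and 5.633 to 7.684 in the cones. OFF-BCs stood apart from every other population and pan-BCs from the rest. The difference between ON-BCs and OFF-BCs was called (log2 difference -3.50, SE 0.54, adjusted p = 0.0044) in 16 of 16 alternatives. That between pan-BCs and rods was called too (2.60, SE 0.54, adjusted p = 0.0097), but not without pan-BC replicate 2 or rod replicate 1 (14 of 16), and that with blue cones was not (1.99, SE 0.54, adjusted p = 0.103).

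The region at -831 bp, whose sequence is printed, had 84.87 and 80.8 in OFF-BCs, 19.41 and 2.928 in ON-BCs, 17.6 and 25.09 in pan-BCs, 23.36 and 16.26 in rods, 28.49 and 28.18 in blue and 14.6 and 19.72 in green cones. It was called higher in OFF-BCs than in ON-BCs (-3.23, SE 0.57, adjusted p = 0.0133), a call lost with DESeq2, with only the 2 populations, and without ON-BC replicate 2, OFF-BC replicate 1 or OFF-BC replicate 2 (adjusted p up to 0.204). Unlike at the start site, pan-BC and rod values overlapped. Within an intron, the region at 517 bp had 67.36 and 36.99 in OFF-BCs and 2.986 and 2.928 in ON-BCs (-3.69, SE 0.63, adjusted p = 0.00718, lost without OFF-BC replicate 1).

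Not all chromatin at Esam followed the RNA. The intronic region at 2918 bp had 34.34 and 26.35 in ON-BCs, 35.03 and 27.26 in OFF-BCs and 28.8 and 14.82 in pan-BCs, with none in rods and at most 4.61 in cones. Its ON-BC and OFF-BC values overlapped (-0.04, SE 0.65), and it was called higher in pan-BCs than in rods (4.44, SE 0.65, adjusted p = 0.000119) and than in blue cones (2.87, SE 0.65, adjusted p = 0.0166, lost without pan-BC replicate 1 or blue cone replicate 2). The region at -9641 bp, in an intron of Msantd2, had 25.38 and 5.857 in ON-BCs and 26.94 and 27.26 in OFF-BCs, without overlap but not called (-1.06, SE 0.91, adjusted p = 1, and -2.03 to -0.09 with either ON-BC library left out), and no read in rods (pan-BC minus rod 4.25, SE 0.91, adjusted p = 0.00288). ON-BCs, with 55.7 normalised counts of Esam RNA, thus had reads in regions in and before the gene where rods had none, without the open start site. The region at -9641 bp holds 1 TAATTA, and none of the 5 regions at Esam or the 6 at Lyve1 holds TAATCC.

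At Lyve1 the start site was open in both kinds of bipolar cell. The promoter region at 11 bp had 89.59 and 76.14 in ON-BCs, 63.32 and 68.14 in OFF-BCs and 75.21 and 82.1 in pan-BCs, against 1.558 and 0 in rods, 10.36 and 0 in blue and 8.452 and 5.633 in green cones. Every bipolar value lay above every photoreceptor value, and the region was called higher in pan-BCs than in rods (5.64, SE 0.79, adjusted p = 4.47e-05) and than in blue cones (4.56, SE 0.79, adjusted p = 0.000876), in 16 of 16 alternatives each. ON-BCs lay above OFF-BCs by 0.33 (SE 0.79), the contrary direction to the RNA, and this was not called.

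Inside the gene, 3 intronic regions had their larger values in ON-BCs. That at 696 bp, whose sequence is printed, had 49.27 and 68.82 in ON-BCs, 21.55 and 14.6 in OFF-BCs and 48.81 and 59.3 in pan-BCs (1.66, SE 0.66, adjusted p = 0.698). That at 963 bp had 47.78 and 51.25 in ON-BCs and 6.736 and 7.788 in OFF-BCs (2.61, SE 0.78, adjusted p = 0.199), and that at 8226 bp 61.22 and 104.0 against 33.68 and 42.83 (1.05, SE 0.74, adjusted p = 1). None passed the test between ON-BCs and OFF-BCs although their 2 libraries a side did not overlap. All 3 were called higher in pan-BCs than in rods, with log2 differences of 5.78 (SE 0.66, adjusted p = 6.02e-06), 3.80 (SE 0.78, adjusted p = 0.00278) and 5.23 (SE 0.74, adjusted p = 6.07e-05), and than in blue cones, the first of them not without blue cone replicate 2.

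Upstream of the gene the pattern turned. The region at -2393 bp, whose sequence is printed, had 48.5 and 31.15 in OFF-BCs, 2.986 and 0 in ON-BCs, 4.801 and 14.25 in pan-BCs, 21.81 and 16.94 in rods, 76.41 and 57.09 in blue and 43.8 and 64.78 in green cones. It was called higher in OFF-BCs than in ON-BCs (-4.32, SE 0.61, adjusted p = 0.00157, lost only with 2 populations in the fit) and lower in pan-BCs than in blue cones (-2.83, SE 0.61, adjusted p = 0.0139, lost without pan-BC replicate 1 or blue cone replicate 1). The region at -6092 bp, in an exon of Mrvi1, had 64.66 and 86.64 in OFF-BCs, 5.972 and 16.11 in ON-BCs and 129.5 to 154.9 in photoreceptors. It too was called higher in OFF-BCs (-2.80, SE 0.34, adjusted p = 0.00198, lost only with 2 populations in the fit) and lower in pan-BCs than in rods (-1.90, SE 0.34, adjusted p = 0.0185) and in blue cones (-1.82, SE 0.34, adjusted p = 0.0416). Both calls were lost without pan-BC replicate 2, the former also without rod replicate 1 or 2 and the latter without blue cone replicate 1 or 2 and with a pseudocount of 0.5. Both regions called higher in OFF-BCs at Lyve1 were therefore outside the gene and were open in photoreceptors, which have next to no Lyve1 RNA, and the latter lies in the neighbour whose RNA was higher in OFF-BCs.

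**Figure D3:**
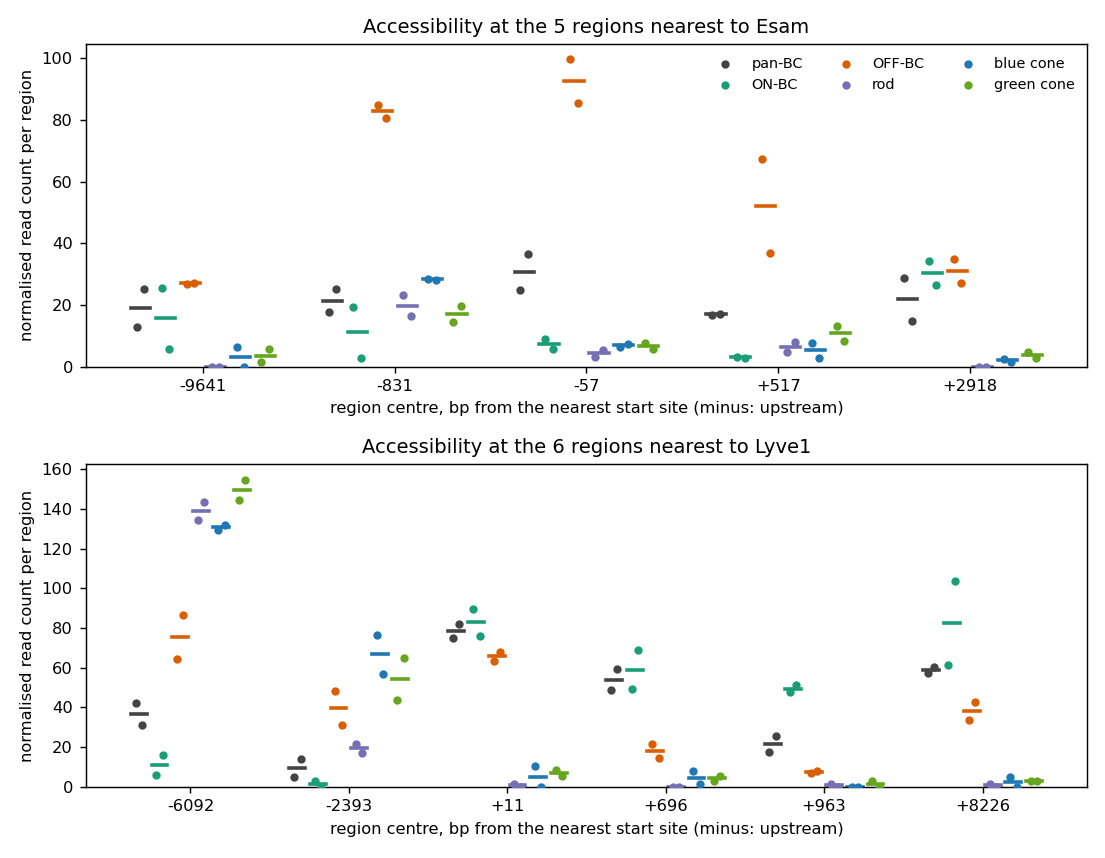
Normalised read count per 201 bp region at the 5 regions nearest to Esam and the 6 nearest to Lyve1, by distance of the region centre from the start site in bp (minus is upstream; not to scale); points are ATAC-seq libraries and bars means of 2. At Esam, the regions at -831, -57 and 517 bp are highest in OFF-BCs, at means of 82.83, 92.68 and 52.17, while at Lyve1 the 4 regions from 11 bp on have every bipolar mean above every photoreceptor mean and the 2 upstream do not.

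The other promoters were read in the same way. That of Jam2, at -16 bp, was open in every library, from 85.61 in a pan-BC library to 201.3 in a rod library, although pan-BC RNA was 6.31 times lower than that of rods (pan-BC minus rod -0.70, SE 0.28, adjusted p = 1). That of Jam3, at -76 bp, did follow the RNA, with 12.46 and 10.16 in rods, 131.2 and 157.4 in pan-BCs, 125.4 and 169.8 in ON-BCs, 233.1 and 206.4 in OFF-BCs and 242.2 and 271.0 in blue cones, and was called higher in pan-BCs than in rods (3.56, SE 0.23, adjusted p = 6.65e-08). The region of Jam3 with the highest bipolar level, at -18782 bp between genes, had 503.8 and 478.4 in blue cones, 309.8 and 255.0 in OFF-BCs, 125.4 and 128.8 in ON-BCs and 37.38 and 33.2 in rods. It was called higher in pan-BCs than in rods (2.15, SE 0.20, adjusted p = 4.72e-05) and below blue cones (-1.61, SE 0.20, adjusted p = 0.0109, lost without pan-BC replicate 1 or blue cone replicate 1).

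Among the vessel receptors, Kdr and Tek had a promoter region. Kdr at 51 bp had 65.7 and 52.71 in ON-BCs, 43.11 and 34.07 in OFF-BCs, 28.8 and 43.9 in pan-BCs and 4.673 and 10.84 in rods, with blue cones overlapping pan-BCs at 31.08 and 17.34 (pan-BC minus blue cone 0.59, SE 0.47, adjusted p = 1). It was called against rods (2.16, SE 0.47, adjusted p = 0.0241, called in 9 of 15 alternatives and lost without pan-BC replicate 2 or rod replicate 1). Tek at -412 bp had 9.601 and 34.78 in pan-BCs, 11.94 and 14.64 in ON-BCs and 5.389 and 1.947 in OFF-BCs, and none in rods or blue cones (pan-BC minus rod 4.28, SE 0.80, adjusted p = 0.00103). A region of Tek at 88317 bp reached 53.89 in an OFF-BC library and had none in rods (4.99, SE 0.71, adjusted p = 6.62e-05). RNA of both genes was at 0 to 31.24 in every bipolar library. Of all regions, 40.3% were called higher in pan-BCs than in rods and 11.2% lower, and 28.8% higher than in blue cones and 7.13% lower. The 56 regions held 33 and 2 in the former comparison and 16 and 6 in the latter, with medians of 3.01 against 1.16 over all regions and 0.65 against 0.54.

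Pecam1, Cldn5 and Flt1 had no promoter region in the table. Pecam1 had 3 weak regions, and that at -8538 bp was lower in pan-BCs, at 0.800 and 6.272, than in rods, at 22.58 and 30.49 (-2.91, SE 0.77, adjusted p = 0.0245, lost in 5 of 15 alternatives, among them without pan-BC replicate 1, rod replicate 1 or rod replicate 2), the direction of its RNA. The single region nearest to Cldn5, at -72979 bp in an intron of Gm41429, was open in bipolar cells at 48.5 to 124.5 and in rods at 0 and 5.421 (5.37, SE 0.62, adjusted p = 6.87e-06), and nothing here ties it to Cldn5. The promoter of F11r at -38 bp ran from 5.857 to 25.35 and the 4 intronic regions of Flt1 from 0 to 35.83.

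**Figure D4:**
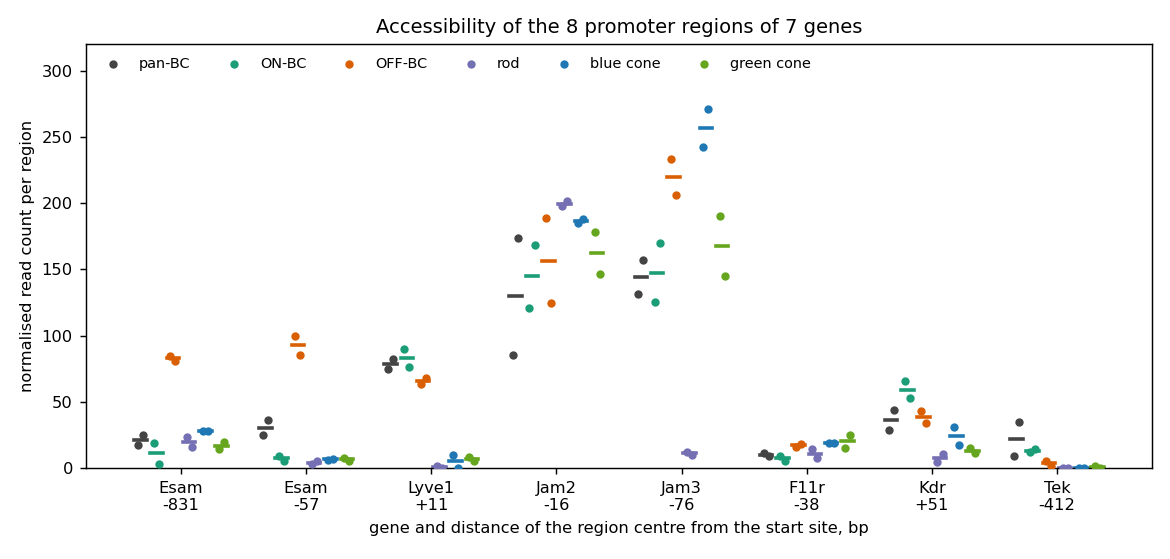
Normalised read count in the 8 promoter regions of 7 of the genes, labelled by the distance of the region centre from the start site in bp; points are ATAC-seq libraries, colours populations and bars means of 2. Esam at -57 bp reaches 85.66 or more only in the OFF-BC libraries, Lyve1 is at 63.32 or more in all 6 bipolar libraries and at most 10.36 in photoreceptors, and Jam2 is open throughout.

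Peaks that the authors called in each library gave the same picture without a shared table. Within the promoter window of Lyve1 a peak was present in 2 of 2 pan-BC, ON-BC and OFF-BC libraries and in 0 of 2 of the rod, blue cone, green cone and double-sorted green cone libraries. At Esam a peak overlapped the region at -57 bp in 2 of 2 OFF-BC and 2 of 2 pan-BC libraries and in none of the other populations. The region at -831 bp had one in 2 of 2 OFF-BC, rod and blue cone libraries, in 1 of 2 pan-BC and green cone libraries and in 0 of 2 ON-BC libraries. Jam2 and Jam3 had promoter peaks in all 14 libraries, Kdr in 2 of 2 libraries of every bipolar population and of blue cones, 1 of 2 green cone, 1 of 2 double-sorted green cone and 0 of 2 rod libraries, Tek in 1 pan-BC library, and Cldn5, Pecam1 and Flt1 in none. Peak calls depend on the depth of each library, and the spread of a peak call over 2 libraries is not an error estimate.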

How the data were processed

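RNA-seq and ATAC-seq libraries of sorted mouse retinal cells were grouped by the population in their labels. The deposited RNA-seq and ATAC-seq tables held a signal that the authors made by dividing reads per gene, or per 201 bp region, by a size factor for each library, and whole reads were recovered for 100% of the values above 0 (within 0.01 reads). The authors also deposited peaks per library with a fold enrichment (a ratio to background) and a −log10 q, of which presence alone was used. The submitters' processing notes name mm10, STAR 2.7.0d, Bowtie2 2.2.5, featureCounts, MACS2 2.1.1 and HOMER 4.8, and whether counting used strand is not given in the sources used here.

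Values were tested on log2(value + 1), since they are not counts, with limma 3.58.1 (R 4.3.3), with a level per population over all libraries of an assay, a variance trend and treat against a log2 difference of 1, at a false discovery rate of 0.05, after edgeR's filterByExpr on recovered reads (14024 of 24062 genes, 108448 of 110715 regions). The code was tested on simulated data. Alternatives were other scaling, pseudocounts of 0.5 and 5, other filters, a test against no change, edgeR 4.0.16 and DESeq2 1.42.0 on recovered reads, only the populations compared, a replicate block and leaving out each library. Per kilobase values used RefSeq exons of GRCm38. Limma's p-values rest on the spread between libraries of a population, pooled over all populations of the assay and drawn toward a trend over features. A gene or region thus has the same SE in all its comparisons, which need not be the spread of the populations compared.

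The genes and lists were chosen with earlier results of these data known. Named were the 10 genes, the 3 most abundant genes of a list in bipolar libraries, genes of the JAM, tight junction, hyaluronan and VEGF lists called between ON-BCs and OFF-BCs, the flanking genes of Esam and Lyve1, the 5 profiles most like Esam, Lyve1 and Pecam1, and promoter regions and the highest bipolar region of each gene. The other genes and regions named were chosen after their values were seen. Some genes that this rule names are not reported here.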

Additional observations from a re-analysis of the deposited data

How the results depend on the processing

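Tested against no change, or with edgeR's F test, the genes called rose from 919 to 3783 and 4027 for ON-BCs against OFF-BCs, from 6112 to 11156 and 11146 for pan-BCs against rods, from 5092 to 10704 and 10729 against blue cones, and from 2231 to 8068 and 8128 for rods against blue cones, since these tests ask for a smaller difference. For the regions of ON-BCs against OFF-BCs, 8010 were called, and 26416 against no change, 27435 with the F test, 12927 with edgeR's glmTreat, 4791 with DESeq2, 3894 with only the 2 populations and 4467 with the stricter filter of 50 reads. That filter gave 31313 in place of 55914 regions for pan-BCs against rods and 21957 in place of 38966 against blue cones, where the test against no change gave 66171 and the F test 69896. Leaving out each library gave 779 to 869 genes for ON-BCs against OFF-BCs, 5793 to 5924 for pan-BCs against rods, 4706 to 4984 against blue cones and 2007 to 2361 for rods against blue cones, and for regions 4175 (without OFF-BC replicate 1) to 6118, 4986 without ON-BC replicate 2, then 47336 to 50887 and 28025 to 33777. Scaling by library totals moved the median gene for pan-BCs against rods from 0.21 to 0.55 and the split of calls from 3901 higher and 2211 lower to 4493 and 1579. For regions of ON-BCs against OFF-BCs, TMM moved the median from 0.15 to -0.07 and the share higher in ON-BCs from 62.1% to 51.5%, and library totals to -0.14 and 47.6%.

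Some log2 differences that were not called changed sign, and the cause was not tested. Jam2 between ON-BCs and OFF-BCs (0.02) was -0.0 with both edgeR tests, -0.03 with DESeq2 and -0.26 to 0.24 over the fits without a library, and between rods and blue cones (0.03) it was -0.04 with library totals. Leaving out a library gave -1.59 to 0.22 for Flt1 between ON-BCs and OFF-BCs (-0.7), -0.98 to 0.06 for Flt1 between pan-BCs and blue cones (-0.51), -0.26 to 0.36 for Kdr between rods and blue cones (0.1), -0.22 to 0.15 for the Esam region at 2918 bp (-0.04) and -0.4 to 0.19 for the Jam2 region at -16 bp (-0.1), both between ON-BCs and OFF-BCs. The Esam region at -831 bp between pan-BCs and rods (0.1) was -0.11 with TMM, -0.1 with both edgeR tests and -0.15 to 0.35 without a library. Over single genes and regions, 1533 fits kept direction and side of the threshold, 42 passed it only in the alternative and 62 lost it.

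ON-BC and OFF-BC libraries of the same number share an age by the labels, and whether they came from the same mice or day is not given in the sources used here. In RNA-seq they did not all deviate together (r = -0.076, 0.222 and -0.065), nor did each correlate best with its own number, so the numbers were not taken to pair them. With the replicate block, 907 genes were called for ON-BCs against OFF-BCs, 6055 and 5038 for pan-BCs against rods and blue cones, 2346 for rods against blue cones, and 8425, 55204 and 38324 regions in the ATAC-seq comparisons. Msantd2 (adjusted p = 0.0582) and Tjp3 (0.0564) lost their calls between ON-BCs and OFF-BCs with it, and no other gene or region given with an adjusted p-value did. For genes and regions named as called without one, such as Csf1r, Sox9, Nefl, Slc6a9 and Itgav, the calls with the block are not given here.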
